A study of Drosophila melanogaster with 16 samples.

Results

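The Osiris family and the genes that pattern and finish the tracheal tubes were examined in whole embryos of Drosophila melanogaster. The Osiris genes were taken as every gene whose symbol is Osi followed only by digits, and 23 were found. Osiris genes whose symbols end in a letter fall outside this rule and were not analysed here. A further 12 tracheal genes were listed by name, and 11 of these were found: bnl, btl, stumps, trh, tgo, vvl, dysfusion (dysf), rib, uif, emp and wurst (wus). The remaining one, esg, was not analysed here. Together these are 34 of the 17753 genes listed for each library. The series asks how Lola-I, an isoform of the zinc-finger transcription factor lola, acts on promoters during development. Polyadenylated RNA was sequenced from transheterozygous ORE50/ORC4 Lola-I mutants aged 14 to 17 h (n = 4), ORC4 Lola-I mutants aged 14 to 17 h (n = 4), OregonR wild type aged 14 to 17 h (n = 5) and OregonR wild type aged 2 to 4 h (n = 3). Both mutant groups carry the ORC4 allele, and the labels do not say whether the ORC4 embryos were homozygous. The labels do not say whether the libraries of a group came from separate embryo collections, so the spread between them may be partly technical. The wild-type replicates at 14 to 17 h are numbered 1, 2, 3, 5 and 6, as in the sample titles.

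Osiris genes encode an insect family of proteins with a signal peptide and a membrane-associated region, expressed in epithelia that lay down cuticle. Most of them sit side by side in the Triplo-lethal region, a stretch of the third chromosome for which flies tolerate neither a missing nor an extra copy. The insect trachea is a branched tube system whose founding cells are specified by Trachealess (trh) acting with Tango (tgo) and Ventral veins lacking (vvl). Branches then grow towards the FGF ligand Branchless (bnl) through its receptor Breathless (btl) and the adaptor Stumps. Late in embryogenesis the tubes secrete an apical matrix, clear protein and liquid from the lumen, and fill with gas. Osi9, Osi15 and Osi19 have been linked to that maturation, and Osi23 to the nanopores of olfactory bristles.

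Of the 23 Osiris genes, 20 lay within 167.9 kb of chromosome arm 3R (dm6, 3R:6173549-6341424). Between them lay 6 other genes, counting only genes both listed for the libraries and annotated. Osi21 lay on 2L, and Osi22 and Osi23 lay elsewhere on 3R. The authors' lengths are whole gene spans, introns included, so TPM, a level corrected for that length and for depth, is a level per span. No Osiris gene of the cluster overlapped another annotated gene, although Osi24 carried fractional estimated counts in all 16 libraries. Among the tracheal genes, trh overlaps lncRNA:CR45378 and dysf overlaps lncRNA:CR44319 on the same strand, and btl carried fractional estimated counts in all 16 libraries, so the values of these genes are uncertain to that extent. Library totals ran from 9025882 to 32521626 estimated counts. They fell into a deep class of at least 27298377 and a shallow class of at most 14472809. All ORE50/ORC4 libraries and wild-type replicates 5 and 6 at 14 to 17 h were shallow, while all ORC4 libraries and wild-type replicates 1, 2 and 3 at that age were deep. Depth class and genotype therefore cannot be told apart between the mutant groups. Summed over all its isoforms, lola fell in ORE50/ORC4 against wild type (log2 fold change -0.42 ± 0.12, SE, adjusted p = 0.0117, edgeR) and gave 0.17 ± 0.12 in ORC4 (adjusted p = 0.310), which does not check the isoform that was mutated.

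In wild type at 14 to 17 h the Osiris genes formed 2 tiers that did not overlap. The upper tier held 9 genes: Osi15 (715 ± 160 TPM, SD, n = 5), Osi20 (568 ± 127), Osi6 (282 ± 182), Osi7 (218 ± 134), Osi19 (161 ± 43.1), Osi18 (125 ± 32.3), Osi14 (119 ± 39.3), Osi9 (103 ± 25.9) and Osi2 (85.7 ± 13.4). Neighbours in that order overlapped between libraries. The next gene, Osi12, stood at 2.17 ± 0.828 TPM, and 13 further genes ranged down to Osi21 at 0.0115 TPM. The same 9 genes led when counts were divided by exonic length, with the order within the tier changed for 5 of them. The upper tier was scattered along the cluster from Osi2, 35.8 kb from its start, to Osi20 at 166.5 kb, with low genes such as Osi8, Osi12, Osi13, Osi16 and Osi17 lying between its members. Low genes included Osi1, with at most 3 counts in any library, and Osi11, with at most 1. Osi4, Osi22 and Osi23 reached at most 18, 7 and 5 counts in any library. Osi21 had at most 3 counts in any library at 14 to 17 h.

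**Figure D1:**
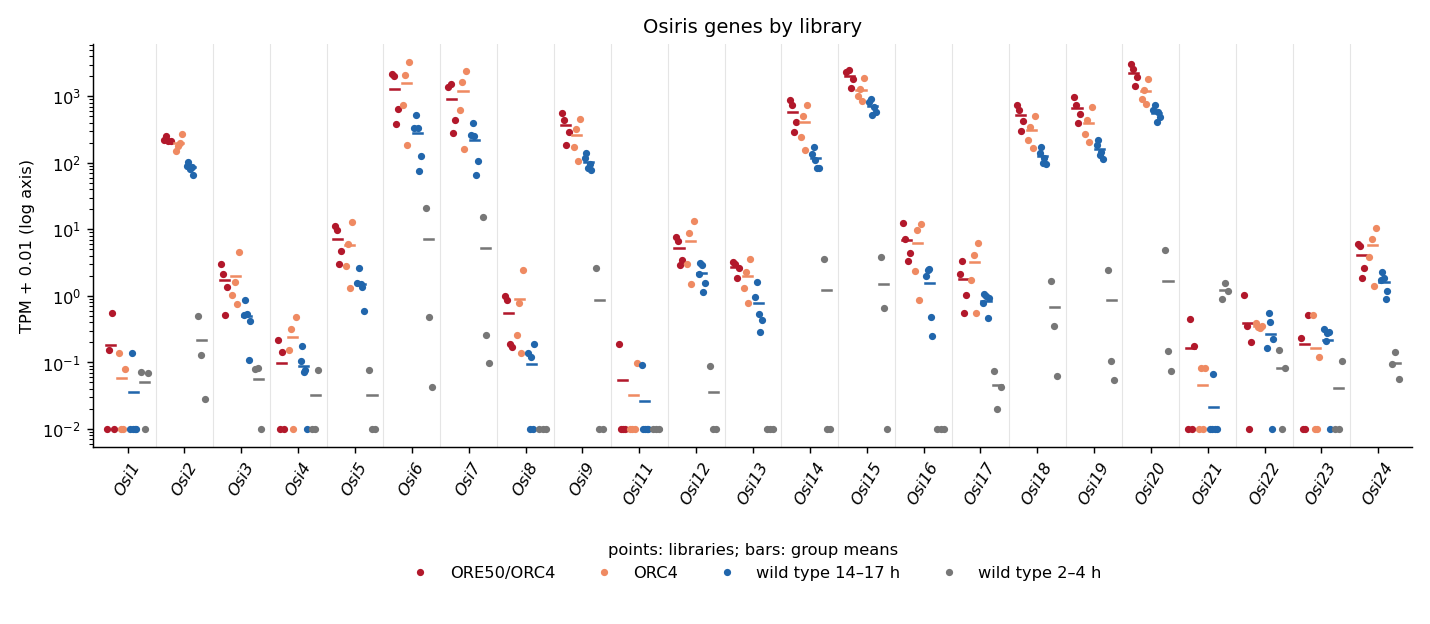
TPM of the 23 Osiris genes in every library, plotted as TPM + 0.01 on a log axis, with group means as bars. The 9 upper-tier genes sit well above the others at 14 to 17 h, and Osi21 is higher at 2 to 4 h.

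Between 2 to 4 h and 14 to 17 h of wild-type development most Osiris genes that could be tested rose. Of the 17 members that passed the low-count filter of that comparison, 16 rose and 1 fell, against 48.1% of the 11636 genes tested that rose and 41.8% that fell (edgeR quasi-likelihood test, adjusted p under 0.05). These 17 include genes that passed the filter only through the older libraries, so their count is a description. Osi15 had 831, 916, 535, 705 and 589 TPM at 14 to 17 h, against 3.84, 0.659 and 0 TPM at 2 to 4 h (log2 fold change 8.76 ± 0.85, adjusted p = 4.05e-06). Osi2 had 90.8, 103, 80.6, 87.2 and 66.9 TPM at the later stage, against 0.495, 0.119 and 0.0186 TPM at the earlier one (8.53 ± 0.50, adjusted p = 8.81e-08). Every older library lay above every younger one for all 16 genes that rose, as it did for 47.1% of all genes, and 41.5% of all genes lay wholly below. Osi13 and Osi16 were listed at 0 in all 3 younger libraries. Osi21, which overlaps mre11, ran the other way: it had 0, 0, 0.0573, 0 and 0 TPM at 14 to 17 h, against 0.885, 1.58 and 1.17 TPM at 2 to 4 h (-5.45 ± 0.59, adjusted p = 9.23e-06), with at most 19 counts in a younger library.

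The youngest stage was not uniform. Replicate 1 at 2 to 4 h held 0.00568% of its total TPM in Osiris genes, against 0.000388% and 0.000185% in replicates 2 and 3. It was the highest of the 3 libraries for most of the Osiris genes that had any count at that stage. Osi6 had 20.7, 0.478 and 0.0321 TPM and Osi7 15.2, 0.250 and 0.0878 TPM in those libraries. The size of the stage difference therefore rests on that library: for Osi6 the log2 fold change was 5.18 with all libraries and between 4.59 and 10.58 when 1 library was left out, the highest being without replicate 1. The same 16 genes were above 0 in log2 fold change, and 16 passed the test, without it.

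At 14 to 17 h most Osiris genes that could be tested were called higher in each Lola-I mutant than in wild type. Of the 23, 17 passed the low-count filter and 6 (Osi1, Osi4, Osi11, Osi21, Osi22 and Osi23) were too low to test. In ORE50/ORC4, 14 of the 17 rose, none fell and 3 did not pass, against 27.0% of the 11431 genes tested that rose. In ORC4, 15 rose, none fell and 2 did not pass, against 15.5% of genes that rose. For 15 of the 17 the ORC4 libraries overlapped with wild type. Without ORC4 replicate 4, 5 of the 16 then tested rose, where 25.6% of all genes passed in either direction. Osi8, Osi13 and Osi16 would not have met the filter on wild-type libraries alone. Of the other 14, 12 rose in ORE50/ORC4 and 14 in ORC4. Median log2 fold changes over those 14 genes were 2.00 in ORE50/ORC4 and 1.61 in ORC4, where the medians over all genes tested were 0.011 and 0.004. The wild-type libraries serve as controls for both mutants, so these comparisons are not independent. In whole embryos, more cells expressing a gene and more RNA per cell cannot be told apart. The labels give age only as 14 to 17 h, so a difference in age within that window cannot be told apart from genotype.

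Osi6 and Osi7 are neighbouring Osiris genes and reached the highest levels of the family in ORC4 replicates 2 and 4. Osi6 had 2144, 2058, 391 and 643 TPM in ORE50/ORC4, 745, 2131, 188 and 3258 TPM in ORC4 and 337, 528, 336, 76.8 and 129 TPM in wild type at 14 to 17 h. Its log2 fold change was 2.29 ± 0.74 (adjusted p = 0.019) in ORE50/ORC4 and 2.42 ± 0.74 (adjusted p = 0.0246) in ORC4, and ORE50/ORC4 replicate 3 and ORC4 replicate 3 lay within the wild-type range. Osi7 had 1398, 1532, 277 and 448 TPM in ORE50/ORC4, 619, 1665, 159.7 and 2452 TPM in ORC4 and 266, 399, 251, 65.9 and 108 TPM in wild type at 14 to 17 h. The same mutant libraries were its lowest, and its log2 fold change was 2.13 ± 0.71 (adjusted p = 0.0214) in ORE50/ORC4 and 2.42 ± 0.71 (adjusted p = 0.0203) in ORC4. Wild-type replicates 5 and 6 were the lowest wild-type libraries for both genes.

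Osi14, another upper-tier gene, separated from wild type in ORE50/ORC4 without overlap. It had 887, 749.5, 296 and 419.7 TPM in ORE50/ORC4, 247, 510, 159 and 746 TPM in ORC4 and 139, 176, 110, 84.6 and 84.1 TPM in wild type at 14 to 17 h. Its log2 fold change was 2.38 ± 0.41 (adjusted p = 0.000392) in ORE50/ORC4 and 1.73 ± 0.41 (adjusted p = 0.0059) in ORC4. Osi3, Osi5 and Osi24 showed the same direction at far lower levels. Osi3 had 3.01, 2.11, 0.512 and 1.35 TPM in ORE50/ORC4, 1.04, 1.61, 0.738 and 4.56 TPM in ORC4 and 0.508, 0.869, 0.531, 0.0996 and 0.405 TPM in wild type at 14 to 17 h, which gave 1.82 ± 0.60 (adjusted p = 0.0202) in ORE50/ORC4 and 1.82 ± 0.57 (adjusted p = 0.0264) in ORC4. Osi5 had 11.2, 9.76, 2.98 and 4.72 TPM in ORE50/ORC4, 2.85, 6.01, 1.29 and 12.9 TPM in ORC4 and 1.55, 2.60, 1.51, 1.35 and 0.589 TPM in wild type at 14 to 17 h, which gave 2.24 ± 0.59 (adjusted p = 0.00605) in ORE50/ORC4 and 1.75 ± 0.57 (adjusted p = 0.0325) in ORC4. All ORE50/ORC4 libraries of Osi5 lay above wild type, while ORC4 replicate 3 did not. Osi24 had 6.11, 5.63, 1.88 and 2.59 TPM in ORE50/ORC4, 3.83, 7.17, 1.43 and 10.6 TPM in ORC4 and 1.74, 2.31, 1.83, 0.897 and 1.19 TPM in wild type at 14 to 17 h, which gave 1.39 ± 0.48 (adjusted p = 0.0265) in ORE50/ORC4 and 1.74 ± 0.47 (adjusted p = 0.0137) in ORC4.

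Osi20 and Osi15, the most abundant members of the wild type, varied less between libraries than Osi6 and Osi7. Osi20, the last gene of the cluster, had 3062, 2577, 1435 and 1954 TPM in ORE50/ORC4, 928, 1235, 766 and 1844 TPM in ORC4 and 627, 739, 410.2, 578 and 486 TPM in wild type at 14 to 17 h. Every mutant library of either genotype was above every wild-type one, and its log2 fold change was 2.07 ± 0.25 (adjusted p = 2.11e-05) in ORE50/ORC4 and 1.0 ± 0.24 (adjusted p = 0.00719) in ORC4. Osi15 had 2292, 2485, 1346 and 1859 TPM in ORE50/ORC4, 1006, 1284, 866 and 1865 TPM in ORC4 and 831, 916, 535, 705 and 589 TPM in wild type at 14 to 17 h. Its libraries did not overlap with wild type in ORE50/ORC4 (1.56 ± 0.21, adjusted p = 5.2e-05) and overlapped in ORC4 (0.74 ± 0.21, adjusted p = 0.0152). Osi18 had 753, 618, 306 and 427 TPM in ORE50/ORC4, 221, 344, 170 and 508 TPM in ORC4 and 140.1, 174, 101, 117 and 95.1 TPM in wild type at 14 to 17 h, at 2.15 ± 0.30 (adjusted p = 7.83e-05) in ORE50/ORC4 and 1.23 ± 0.30 (adjusted p = 0.00671) in ORC4. Its neighbour Osi19 had 972, 752, 398 and 551 TPM in ORE50/ORC4, 273, 438, 209 and 684 TPM in ORC4 and 187, 222, 134, 145 and 116 TPM in wild type at 14 to 17 h, at 2.14 ± 0.32 (adjusted p = 0.000117) in ORE50/ORC4 and 1.24 ± 0.31 (adjusted p = 0.00843) in ORC4. Osi2, named here after its values were seen because it varied least within groups, had 219, 254, 210.2 and 217 TPM in ORE50/ORC4, 149, 181, 201 and 274 TPM in ORC4 and 90.8, 103, 80.6, 87.2 and 66.9 TPM in wild type at 14 to 17 h. No mutant library of Osi2 overlapped with wild type, and its log2 fold change was 1.48 ± 0.13 (adjusted p = 2.22e-06) in ORE50/ORC4 and 1.16 ± 0.13 (adjusted p = 2.53e-05) in ORC4.

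Among the other genes tested, Osi9, one of those linked to tracheal maturation, rose by 1.92 ± 0.37 in ORE50/ORC4 and 1.30 ± 0.37 in ORC4 on the log2 scale (adjusted p = 0.000853 and 0.0165). Osi13 and Osi16 rose in ORE50/ORC4 (1.79 ± 0.47, adjusted p = 0.00584 and 2.08 ± 0.71, adjusted p = 0.0243) and did not pass in ORC4 (1.17 ± 0.45, adjusted p = 0.0628 and 1.75 ± 0.68, adjusted p = 0.0653). Osi12 and Osi17 did not pass in ORE50/ORC4 (1.30 ± 0.52, adjusted p = 0.0511 and 1.11 ± 0.59, adjusted p = 0.123) and rose in ORC4 (1.48 ± 0.51, adjusted p = 0.04 and 1.81 ± 0.57, adjusted p = 0.0278). Osi8, with at most 2 counts in any wild-type library at 14 to 17 h, gave 2.71 ± 1.12 (adjusted p = 0.0551) in ORE50/ORC4 and rose in ORC4 (3.18 ± 0.95, adjusted p = 0.0218). Osi8, Osi13 and Osi16 met the low-count filter only with the mutant libraries counted, so their calls are descriptions. Every library of ORE50/ORC4 lay above every wild-type library for 10 of the 17 genes, 8 of them among the 14 that met the filter on wild-type libraries alone, where 14.3% of all genes tested did so. In ORC4 this held for 2 of the 17, Osi2 and Osi20, against 14.2% of all genes tested.

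**Figure D2:**
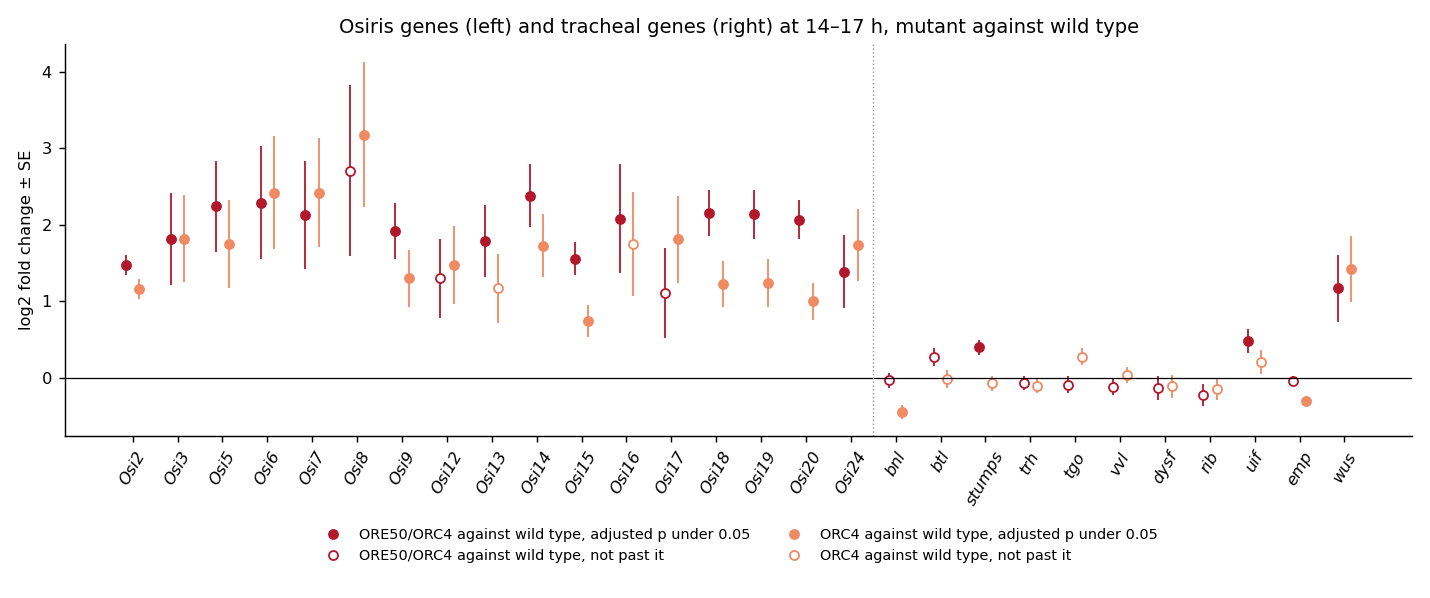
Log2 fold change ± SE of mutant over wild type at 14 to 17 h for the 17 Osiris genes tested (left) and the 11 tracheal genes (right), with filled points where the adjusted p was under 0.05. All 17 Osiris genes lie above 0 in both mutants, and among the tracheal genes wus lies highest.

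The Osiris genes shared their high and low libraries. In ORE50/ORC4, replicate 1 was the highest library for 13 of the 17 genes and replicate 2 for the other 4, while replicate 3 was the lowest for 16. In ORC4, replicate 4 was the highest for 17 of 17 and replicate 3 the lowest for 16, the exception being Osi2, lowest in replicate 1. In wild type at 14 to 17 h, replicate 2 was the highest for 15, and replicates 5 and 6 were the lowest for 7 genes each. The share of total TPM in the family was 1.23%, 1.15%, 0.486% and 0.683% in ORE50/ORC4 and 0.438%, 0.815%, 0.284% and 1.22% in ORC4. It was 0.275%, 0.341%, 0.205%, 0.196% and 0.176% in wild type at 14 to 17 h. The median coefficient of variation over the 17 genes was 47.0% in ORE50/ORC4, 69.3% in ORC4 and 34.8% in wild type at 14 to 17 h. For the 11 tracheal genes it was 23.5%, 11.2% and 11.8% in those groups. Osi2 varied least of the 17 genes in each of these groups (8.79%, 26.4% and 15.6%).

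**Figure D3:**
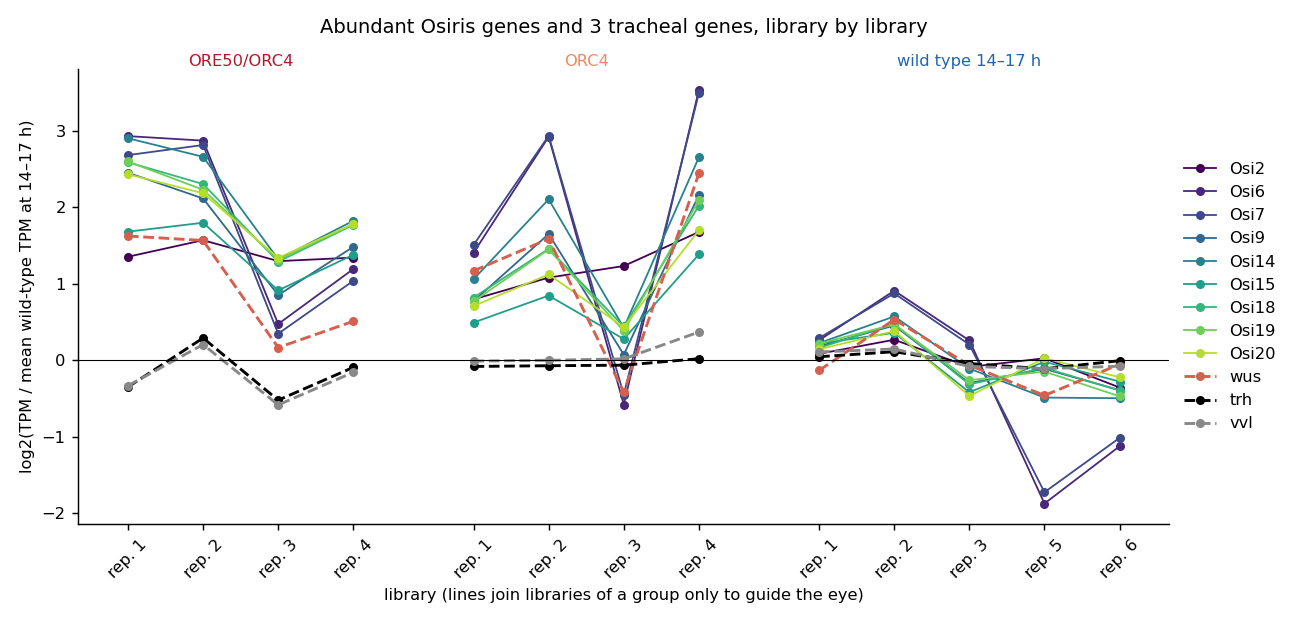
Log2 ratio of TPM to the wild-type mean at 14 to 17 h for the 9 upper-tier Osiris genes and for wus, trh and vvl in each library. Within ORE50/ORC4 all 9 Osiris genes and wus are lowest in replicate 3, and within ORC4 all 9 and wus are highest in replicate 4.

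The number of calls depended on single libraries in both mutants. Without ORC4 replicate 4, 5 of the 16 Osiris genes then tested passed in ORC4, where 25.6% of all genes passed in either direction. Without ORC4 replicate 2, 8 of 16 passed, where 23.4% of all genes did. The log2 fold changes of all 16 genes stayed above 0 in both fits. Without ORE50/ORC4 replicate 1, 9 of 17 genes passed in ORE50/ORC4, where 47.0% of all genes did, again with all 17 above 0. Osi2, Osi14, Osi18, Osi19 and Osi20 passed in both mutants whichever library was left out. The lowest log2 fold change of Osi20 was 1.87 in ORE50/ORC4 and 0.75 in ORC4.

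Depth class also moved with the genes. Among wild-type libraries at 14 to 17 h, the shallow ones were lower than the deep ones for Osi6 (log2 difference -1.90, adjusted p = 0.0122), Osi7 (-1.75, adjusted p = 0.0135) and Osi16 (-2.61, adjusted p = 0.0271), while Osi20 differed by -0.08 (adjusted p = 0.849). Against wild-type libraries of the same depth class (replicates 5 and 6), 12 of 16 Osiris genes tested rose in ORE50/ORC4. In that fit 50.7% of all genes passed in either direction. In ORC4, with replicates 1, 2 and 3 as the control, 6 of 17 rose, where 30.4% of all genes passed in either direction. Within those classes Osi20 differed by 2.12 in ORE50/ORC4 (adjusted p = 0.000935) and by 0.96 in ORC4 (adjusted p = 0.0330), and Osi6 by 3.69 (adjusted p = 0.0195) and 1.91 (adjusted p = 0.101).

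Set directly against each other, the mutants gave a share of Osiris calls near that of all genes. ORE50/ORC4 was higher than ORC4 for 4 of the 17 Osiris genes and lower for none, where 19.9% of all genes were higher, 17.4% lower and 37.3% either. The 4 were Osi20 (1.07 ± 0.26, adjusted p = 0.00614), Osi18 (0.91 ± 0.31, adjusted p = 0.0361), Osi19 (0.89 ± 0.33, adjusted p = 0.0478) and Osi15 (0.82 ± 0.22, adjusted p = 0.0111), all of the upper tier. The other 13 did not pass, with log2 fold changes between -0.70 (Osi17) and 0.65 (Osi14). Libraries of the mutants overlapped for all 17 genes, whereas 7.29% of all genes lay wholly above in ORE50/ORC4 and 20.2% wholly below. Osi18 and Osi19 lost the call in 5 and 6 of the 8 fits that left out 1 library. With depth class as a covariate none of the 17 passed (Osi20 1.15, adjusted p = 0.0658), and that fit estimates depth from wild-type libraries only.

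Of the 6 other genes inside the cluster, 4 could be tested, and 2 fell and 1 rose in each mutant, where 54.0% of all genes passed in ORE50/ORC4 and 32.7% in ORC4. NPFR, the neuropeptide F receptor, had 1.13, 1.54, 1.32 and 1.54 TPM in ORE50/ORC4, 2.51, 2.10, 2.91 and 2.03 TPM in ORC4 and 3.91, 3.84, 3.78, 3.48 and 4.17 TPM in wild type at 14 to 17 h, and fell by 1.39 on the log2 scale in ORE50/ORC4 (adjusted p = 4.61e-06) and by 0.74 in ORC4 (adjusted p = 0.000746). CG15597 had 3.50, 2.28, 4.12 and 1.45 TPM in ORE50/ORC4, 10.1, 6.45, 8.60 and 4.14 TPM in ORC4 and 48.5, 17.9, 31.0, 34.8 and 25.6 TPM in wild type at 14 to 17 h. It fell by 3.39 in ORE50/ORC4 (adjusted p = 2.38e-05) and by 2.16 in ORC4 (adjusted p = 0.000360), with no overlap. CG46026 rose by 1.76 ± 0.27 in ORE50/ORC4 (adjusted p = 0.000176) and 0.82 ± 0.27 in ORC4 (adjusted p = 0.0329), and CG15594 did not pass in either.

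Most of the 11 tracheal genes did not pass against wild type. In ORE50/ORC4, 3 of the 11 rose, none fell and 8 did not pass; 54.0% of all genes passed in either direction. In ORC4, 1 rose, 2 fell and 8 did not pass, against 32.7% of all genes in either direction. Between stages 5 rose and 6 fell, where 89.9% of all genes passed. In wild type at 14 to 17 h the levels ran from emp (85.1 ± 7.23 TPM), vvl (80.8 ± 6.84) and tgo (68.0 ± 5.33) through uif (24.5 ± 3.47), rib (16.4 ± 3.88) and trh (6.14 ± 0.362) to stumps (5.00 ± 0.379), btl (4.81 ± 0.928), wus (4.41 ± 1.18), bnl (1.81 ± 0.298) and dysf (0.644 ± 0.0762). Libraries of emp and vvl overlapped, as did uif and rib, and stumps, btl and wus. Those of trh overlapped with btl and wus. Per exonic length uif was second and bnl eighth.

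**Figure D4:**
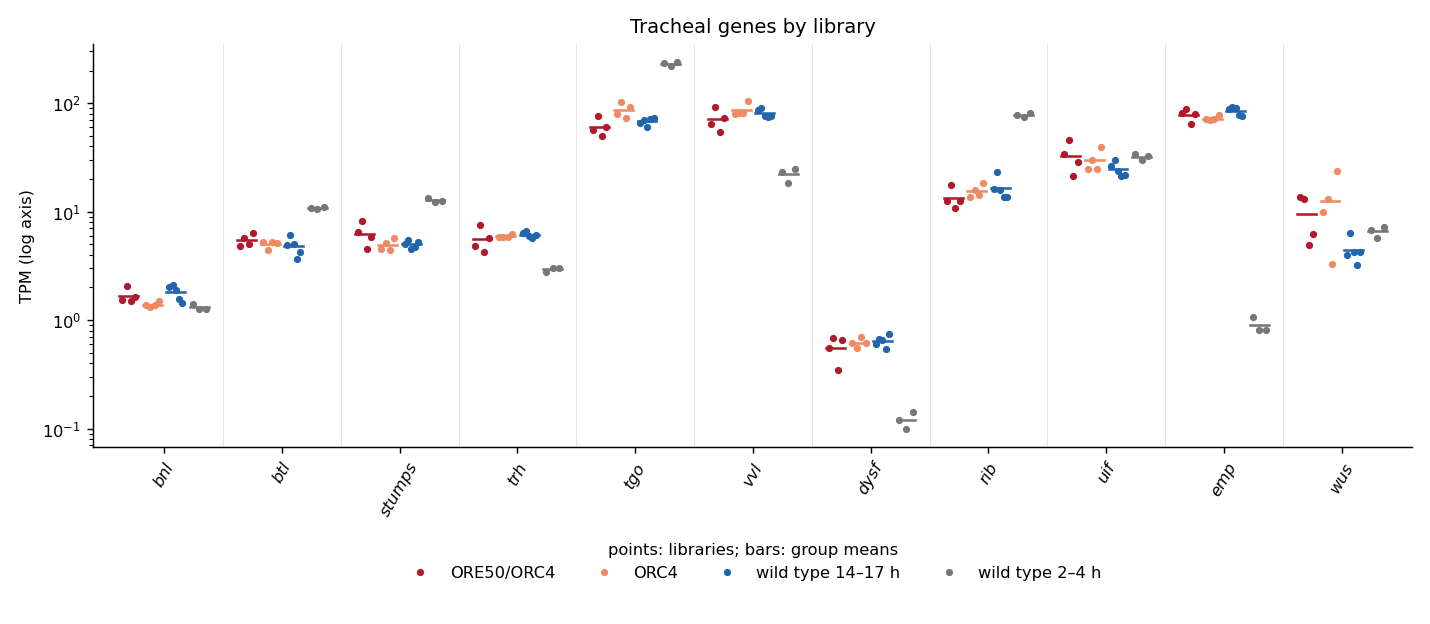
TPM of the 11 tracheal genes in every library on a log axis, ordered by role from the FGF ligand to the luminal clearance genes, with group means as bars. Each mutant overlaps with wild type at 14 to 17 h for every gene except tgo in ORC4, and the widest spread is that of wus in the mutants.

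In the FGF pathway, the ligand gene bnl had 1.53, 2.04, 1.51 and 1.64 TPM in ORE50/ORC4, 1.39, 1.32, 1.37 and 1.5 TPM in ORC4 and 2.03, 2.12, 1.90, 1.57 and 1.43 TPM in wild type at 14 to 17 h, and 1.41, 1.26 and 1.27 TPM in wild type at 2 to 4 h. It fell in ORC4 (-0.44 ± 0.09, adjusted p = 0.00335) and gave -0.03 ± 0.10 (adjusted p = 0.815) in ORE50/ORC4, and it was higher in ORE50/ORC4 than in ORC4 without overlap (0.41 ± 0.10, adjusted p = 0.0064). Wild-type replicates 5 and 6 were its lowest wild-type libraries, and against those alone the ORC4 value was -0.21 (adjusted p = 0.135). The receptor gene btl had 4.86, 5.68, 5.04 and 6.31 TPM in ORE50/ORC4, 5.23, 4.43, 5.23 and 5.13 TPM in ORC4 and 4.91, 6.15, 5.05, 3.68 and 4.27 TPM in wild type at 14 to 17 h. It did not pass in ORE50/ORC4 (0.27 ± 0.12, adjusted p = 0.0777) or ORC4 (-0.01 ± 0.12, adjusted p = 0.959). In wild type it fell between the stages, with 10.8, 10.5 and 11 TPM at 2 to 4 h (-1.15 ± 0.13, adjusted p = 1.5e-05). The adaptor gene stumps had 6.51, 8.23, 4.53 and 5.88 TPM in ORE50/ORC4, 4.56, 5.18, 4.48 and 5.66 TPM in ORC4 and 5.03, 5.43, 4.53, 4.73 and 5.30 TPM in wild type at 14 to 17 h. It rose in ORE50/ORC4 against wild type (0.40 ± 0.10, adjusted p = 0.00574) and against ORC4 (0.48 ± 0.11, adjusted p = 0.00481), and gave -0.07 ± 0.10 (adjusted p = 0.618) in ORC4. The first comparison passed in all 9 fits that left out 1 library. It did not pass against wild-type replicates 5 and 6 alone (0.36, adjusted p = 0.0682) or with limma on log2(TPM + 1) (0.26, adjusted p = 0.117). At 2 to 4 h stumps had 13.2, 12.3 and 12.6 TPM (stage difference -1.34 ± 0.09, adjusted p = 2.59e-07).

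None of the transcription factor genes passed against wild type in either mutant, although tgo was called in ORC4 under alternatives given beside its values. The tracheal selector gene trh had 4.81, 7.50, 4.27 and 5.75 TPM in ORE50/ORC4, 5.80, 5.84, 5.86 and 6.22 TPM in ORC4 and 6.33, 6.63, 5.95, 5.68 and 6.11 TPM in wild type at 14 to 17 h, with log2 fold changes of -0.07 ± 0.09 (adjusted p = 0.569) in ORE50/ORC4 and -0.11 ± 0.09 (adjusted p = 0.368) in ORC4. The POU-domain gene vvl had 64.0, 93.0, 53.9 and 72.3 TPM in ORE50/ORC4, 80.1, 80.7, 81.7 and 104 TPM in ORC4 and 87.0, 89.4, 76.3, 74.8 and 76.4 TPM in wild type at 14 to 17 h, at -0.12 ± 0.10 (adjusted p = 0.321) and 0.04 ± 0.10 (adjusted p = 0.814) in those mutants. For both genes the ORE50/ORC4 libraries, with replicate 2 highest and replicate 3 lowest, ran from below to above all wild-type libraries. The bHLH-PAS partner gene tgo had 56.2, 76.5, 49.8 and 60.7 TPM in ORE50/ORC4, 79.1, 102, 72.6 and 91.3 TPM in ORC4 and 65.0, 70.6, 60.1, 71.9 and 72.6 TPM in wild type at 14 to 17 h. The lowest ORC4 library and the highest wild-type one agreed to 3 digits, and the difference did not pass (0.28 ± 0.11, adjusted p = 0.0594), although it did in ORC4 with DESeq2 (0.29, adjusted p = 0.0363), with depth class as a covariate (0.37, adjusted p = 0.0251), with wild-type replicates 1, 2 and 3 alone (0.36, adjusted p = 0.0393) and without ORC4 replicate 3 (0.34, adjusted p = 0.0281). The tgo difference in ORE50/ORC4 did not pass (-0.09 ± 0.11, adjusted p = 0.515), while the direct comparison put tgo lower in ORE50/ORC4 (-0.37 ± 0.11, adjusted p = 0.0224). The fusion-cell gene dysf had 0.548, 0.683, 0.345 and 0.659 TPM in ORE50/ORC4, 0.614, 0.558, 0.697 and 0.620 TPM in ORC4 and 0.599, 0.677, 0.661, 0.542 and 0.741 TPM in wild type at 14 to 17 h, at -0.13 ± 0.16 (adjusted p = 0.516) and -0.11 ± 0.15 (adjusted p = 0.608) in those mutants. The BTB-domain gene rib, required for tube elongation, had 12.6, 17.7, 10.8 and 12.5 TPM in ORE50/ORC4, 13.6, 15.9, 14.1 and 18.4 TPM in ORC4 and 16.2, 23.1, 15.7, 13.6 and 13.7 TPM in wild type at 14 to 17 h, at -0.22 ± 0.14 (adjusted p = 0.188) and -0.15 ± 0.14 (adjusted p = 0.432).

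Over wild-type development these regulators divided. At 2 to 4 h trh had 2.80, 3.02 and 3.04 TPM, vvl 23.2, 18.4 and 24.9 TPM and dysf 0.119, 0.0993 and 0.143 TPM, and all rose by 14 to 17 h (1.06 ± 0.08, adjusted p = 3.6e-07, 1.86 ± 0.14, adjusted p = 4.65e-07 and 2.39 ± 0.20, adjusted p = 1.44e-06). tgo had 235, 218 and 238 TPM and rib 78.5, 74.5 and 81.7 TPM at 2 to 4 h, and both fell (-1.76 ± 0.10, adjusted p = 9.32e-08 and -2.25 ± 0.15, adjusted p = 2.73e-07). Unlike the other tracheal regulators, tgo is expressed in most cells of the embryo. No library of the older stage overlapped with the younger one for these 5 genes.

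Among the genes of tube finishing, wus changed most. It encodes a J-domain membrane protein needed for endocytosis and for clearing liquid from the tubes, and it had 13.6, 13, 4.94 and 6.27 TPM in ORE50/ORC4, 9.89, 13.2, 3.29 and 23.9 TPM in ORC4 and 4.01, 6.37, 4.21, 3.20 and 4.24 TPM in wild type at 14 to 17 h. It rose in ORE50/ORC4 (1.17 ± 0.44, adjusted p = 0.0382) and ORC4 (1.42 ± 0.43, adjusted p = 0.0228) and did not pass between the mutants (-0.25 ± 0.45, adjusted p = 0.695). Within ORE50/ORC4 it was highest in replicate 1 and lowest in replicate 3, and within ORC4 highest in replicate 4 and lowest in replicate 3, as were most Osiris genes. In wild type at 14 to 17 h it was highest in replicate 2, as were most Osiris genes, and lowest in replicate 5, as were 7 of the 17. The call was lost in 6 of 9 fits that left out 1 library in ORE50/ORC4, and in 3 of 9 in ORC4, among them those without ORC4 replicates 2 and 4. uif, an apical membrane protein with EGF repeats, had 33.8, 46.1, 21.3 and 28.9 TPM in ORE50/ORC4, 24.7, 29.8, 25.0 and 39.3 TPM in ORC4 and 26.2, 29.7, 23.6, 21.5 and 21.6 TPM in wild type at 14 to 17 h. It rose in ORE50/ORC4 (0.48 ± 0.16, adjusted p = 0.0221), did not pass in ORC4 (0.21 ± 0.16, adjusted p = 0.34), and lost the call without ORE50/ORC4 replicates 1 or 2 or wild-type replicate 6. emp, a scavenger receptor of the CD36 family that takes up luminal protein, had 81.1, 88.2, 64.8 and 79.2 TPM in ORE50/ORC4, 71.3, 69.3, 70.8 and 77.4 TPM in ORC4 and 88.6, 92.0, 90.2, 78.1 and 76.4 TPM in wild type at 14 to 17 h. It fell in ORC4 (-0.30 ± 0.06, adjusted p = 0.00293), gave -0.04 ± 0.06 (adjusted p = 0.632) in ORE50/ORC4 and was higher in ORE50/ORC4 than in ORC4 (0.26 ± 0.07, adjusted p = 0.00796).

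The stages set these 3 genes apart. At 2 to 4 h emp had 1.07, 0.809 and 0.806 TPM, and its rise to 14 to 17 h was the greatest of the tracheal genes (6.55 ± 0.17, adjusted p = 8.01e-10). wus had 6.76, 5.76 and 7.26 TPM and uif 34.1, 29.8 and 32.3 TPM at 2 to 4 h, and both fell (-0.58 ± 0.21, adjusted p = 0.0229 and -0.39 ± 0.12, adjusted p = 0.0112). The call was lost for wus without replicate 1 or replicate 3 at 2 to 4 h, and for uif without replicate 1.

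Genes that act beside the members were followed through lists chosen by function. Over all genes tested, 27.0% rose and 27.0% fell in ORE50/ORC4, and 15.5% rose and 17.2% fell in ORC4, which is the background of each count that follows. In the list of 15 genes of FGF signalling and terminal branching, 3 rose and 3 fell in ORE50/ORC4, and 4 rose and 2 fell in ORC4, where 54.0% and 32.7% of all genes passed. Hph, the oxygen-sensing prolyl hydroxylase, rose in ORC4 (28.9 ± 10.9 TPM, against 10.8 ± 3.21 TPM in wild type, log2 fold change 1.35, adjusted p = 0.000622), and was 12.2 ± 2.49 TPM in ORE50/ORC4 (0.26, adjusted p = 0.363). The FGF ligand gene ths rose in ORE50/ORC4 (0.51, adjusted p = 0.000114), and the FGF receptor gene htl fell in ORC4 (-0.64, adjusted p = 1.25e-05). Of 13 tracheal patterning genes, none rose and 6 fell in ORE50/ORC4, and 1 rose and 5 fell in ORC4. The zinc-finger gene kni fell by 0.38 in ORE50/ORC4 (adjusted p = 0.00325) and by 0.53 in ORC4 (adjusted p = 0.000495).

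Of 15 genes of the tube lumen and apical matrix, 6 rose and 4 fell in ORE50/ORC4 (27.0% of all genes rose and 27.0% fell), and 6 rose and 1 fell in ORC4 (15.5% and 17.2%). knk, which organises chitin in the cuticle, was 36.0 ± 7.09 TPM in ORE50/ORC4 and 31.3 ± 9.21 TPM in ORC4, against 14.1 ± 1.02 TPM in wild type (log2 fold changes 1.44, adjusted p = 1.19e-05, and 1.08, adjusted p = 0.000194). The chitin-binding protein genes Gasp and obst-A rose by 1.39 and 1.41 in ORE50/ORC4 (adjusted p = 6.20e-06 and 4.72e-07). In ORC4 Gasp did not pass (0.35, adjusted p = 0.0740) and obst-A rose by 0.49 (adjusted p = 0.00379). The zona pellucida protein gene pio fell in ORE50/ORC4 (-0.78, adjusted p = 0.00144). Of 10 denticle and apical extension genes, 2 rose and 1 fell in ORE50/ORC4, and 3 rose and none fell in ORC4, where 54.0% and 32.7% of all genes passed. dyl, which shapes the apical matrix over denticles, rose in ORE50/ORC4 (1.87 ± 0.45, adjusted p = 0.00353) and ORC4 (1.69 ± 0.45, adjusted p = 0.0114), as did the actin-bundling gene f (1.56, adjusted p = 0.000250, and 1.08, adjusted p = 0.00565). The yellow gene y, whose product acts in pigmentation, fell in ORE50/ORC4 (-0.77, adjusted p = 0.0152) and gave -0.50 in ORC4 (adjusted p = 0.118).

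Of 17 tested genes of secretion, endocytosis and liquid clearance (19 listed), 8 rose and 1 fell in ORE50/ORC4, close to the 54.0% of all genes that passed, and 1 rose and none fell in ORC4, where 32.7% of all genes passed. The coat protein genes Sec13 and deltaCOP rose in ORE50/ORC4 (0.54, adjusted p = 2.92e-05, and 0.48, adjusted p = 0.000133), and the retromer gene Vps35 fell (-0.38, adjusted p = 0.0322). Of 11 genes of septate junctions and tube size, 6 rose and 2 fell in ORE50/ORC4 (27.0% and 27.0% of all genes), and 2 rose and 3 fell in ORC4 (15.5% and 17.2%). Gli, a septate junction protein gene, rose in ORE50/ORC4 (0.63, adjusted p = 1.02e-06) and ORC4 (0.43, adjusted p = 4.28e-05).

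Some summed marker levels differed between the genotypes. The summed level of 10 epidermis and cuticle markers lay between 3760 and 6897 TPM in ORE50/ORC4, between 6072 and 10540 TPM in ORC4 and between 9441 and 12460 TPM in wild type at 14 to 17 h, and none of the 10 was at 0 in a library at that age. By gene, 4 of the 10 rose and 3 fell in ORE50/ORC4 (median log2 fold change 0.08), and 2 rose and none fell in ORC4 (median -0.11). Those that rose include knk and kkv in both mutants, and those that fell in ORE50/ORC4 are TwdlM, Ddc and grh. Most of that sum is the cuticle protein gene TwdlM, with 3479, 4539, 6620 and 6599 TPM in ORE50/ORC4, 8837, 7149, 10210 and 5736 TPM in ORC4 and 10750, 11040, 12150, 9153 and 9802 TPM in wild type at 14 to 17 h. The summed level of 6 tracheal markers lay between 1166 and 1655 TPM in ORE50/ORC4, between 1231 and 1489 TPM in ORC4 and between 1089 and 1329 TPM in wild type at 14 to 17 h. Of these 6 markers, 1 rose and 2 fell in ORE50/ORC4 (median log2 fold change 0.06), and none rose and 1 fell in ORC4 (median -0.06). Ddc, the dopa decarboxylase gene of cuticle hardening, had 23.3, 34.0, 60.3 and 58.9 TPM in ORE50/ORC4, 97.3, 64.4, 102 and 45.7 TPM in ORC4 and 88.5, 92.5, 109, 79.8 and 82.1 TPM in wild type at 14 to 17 h. TwdlM and Ddc were lowest in the mutant libraries with the largest Osiris share, replicate 1 of ORE50/ORC4 and replicate 4 of ORC4, which did not hold in wild type. The neuron marker sum lay between 92.2 and 141 TPM in ORE50/ORC4, between 124 and 134 TPM in ORC4 and between 183 and 206 TPM in wild type at 14 to 17 h. The glia sum lay between 92.9 and 109.9 TPM in ORE50/ORC4, between 102 and 142 TPM in ORC4 and between 141 and 163 TPM in that wild type. The fat body sum lay between 1145 and 1625 TPM in ORE50/ORC4, between 1496 and 1737 TPM in ORC4 and between 1781 and 1986 TPM in wild type, with Lsp2, Fbp1 and Fbp2 at 0 in at least 1 library. Taken singly, 3 of 6 neuron markers fell in ORE50/ORC4 and 1 in ORC4, and none rose. Of 4 glia markers, 2 rose and 1 fell in ORE50/ORC4 (median log2 fold change 0.11), and 1 fell in ORC4. Of 4 fat body markers tested, 1 fell in ORE50/ORC4 (median 0.21), and 1 rose and 1 fell in ORC4. Over all genes tested, 54.0% passed in ORE50/ORC4 and 32.7% in ORC4. Hemocyte and midgut sums overlapped between the groups at 14 to 17 h. The part of these differences in the Osiris values was not tested.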

How the data were processed

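Polyadenylated RNA from 16 whole-embryo libraries was sequenced. Per the submitters' processing notes, CASAVA 1.8.2, kallisto and the dm6 build were used. The deposited files give an estimated count and a TPM (a level corrected for length and depth) per gene, and per the file headers a gene length. That length equalled the whole gene span for 99.3% of the genes matched to the annotation, so introns enter the TPM. Gene names and positions came from the Ensembl annotation of the same assembly, which matched 17625 of 17753 identifiers.

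The members and gene lists were chosen with earlier results of these data known. Estimated counts were rounded and tested with edgeR 4.0.16 (R 4.3.3) by the quasi-likelihood test with TMM scaling. Genes needed a CPM of 0.366 in at least 4 libraries at 14 to 17 h. P-values were adjusted over all genes tested by Benjamini-Hochberg, and genes with an adjusted p under 0.05 were called. The 13 libraries at 14 to 17 h were fitted together, and the stage comparison used the 8 wild-type libraries. The procedure was tested on simulated data. For ORC4 against wild type, 92.9% of genes changed by 1 on the log2 scale were recovered, among 11439 genes. Of those changed by 2, 98.0% were recovered. Between the mutants 82.7% of genes changed by 1 were recovered. Every simulated gene had the same spread beyond counting error, smaller than the median spread of the Osiris genes in each group at 14 to 17 h. Recovery of changes in the Osiris genes was therefore not measured.

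Values in every library are given for the Osiris genes called alike in both mutants (6, ranked by the smaller fold change), those called between the mutants (up to 4), the 3 most abundant in wild type, and all tracheal genes. From each list, up to 3 called genes per direction and mutant are named. Alternatives were DESeq2 1.42.0, other filters, RLE scaling, a test of the deposited TPM on a log2 scale with limma 3.58.1 (pseudocounts 1 and 0.1), a replicate block, depth class, wild-type subsets, and leaving out each library. The smallest total allows 3 counts to stand for a CPM of 0.332 and the largest for 0.0922. This limit covers counting error only. Same-numbered libraries correlated over 0.1 in only some pairs (in their deviations from group means), so the numbers were not taken to pair samples.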

Additional observations from a re-analysis of the deposited data

Results flagged for a closer look

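Of 83 groups of 4 to 10 libraries examined among the members, 4 held a library far from the rest, and chance flags about 1 in 20 groups. In ORC4, replicate 4 had 6.22 TPM of trh where the other libraries had 5.80 to 5.86, and 104.2 TPM of vvl where the others had 80.1 to 81.7. ORC4 replicate 2 had 4.43 TPM of btl, with the others at 5.13 to 5.23. In wild type at 14 to 17 h, replicate 2 had 23.1 TPM of rib, with the others at 13.6 to 16.2. ORC4 replicate 4 and wild-type replicate 2 were also the libraries with the most Osiris RNA in their groups.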

How the results depend on the processing

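No called result changed direction under any alternative that was run. The number of Osiris genes that rose in ORE50/ORC4 was 9 with wild-type replicates 1, 2 and 3 alone, instead of 14, and 9 to 16 when 1 library was left out (9 without ORE50/ORC4 replicate 1). In ORC4 it was 8 with limma on log2(TPM + 1), 7 with depth class as a covariate, 6 with wild-type replicates 1, 2 and 3 alone and 7 with replicates 5 and 6 alone, instead of 15, and 5 to 16 when 1 library was left out (5 without ORC4 replicate 4, 8 without ORC4 replicate 2). Between the mutants it was 1 with limma at either pseudocount, 2 with only the compared groups fitted, 0 with depth class and 1 past 2-fold, instead of 4, and 2 to 5 when 1 library was left out. Those leave-one-out counts were 2 without ORC4 replicate 1, 2 or 3 and without ORE50/ORC4 replicate 1 or 2. Between stages, Osi21 was not tested where a mean of at least 10 counts was asked, leaving 0 genes that fell instead of 1, and leaving out 1 library gave 14 to 16 that rose and 1 to 1 that fell. Over all genes, 44.2% passed in either direction in ORE50/ORC4 with wild-type replicates 1, 2 and 3 alone. Without ORE50/ORC4 replicate 1 the share was 47.0%. In ORC4 the share was 30.7% with limma on log2(TPM + 1) and 33.1% with depth class. With wild-type replicates 1, 2 and 3 alone it was 30.4%, and with replicates 5 and 6 alone 21.6%. It was 25.6% without ORC4 replicate 4 and 23.4% without ORC4 replicate 2. Between the mutants the share was 30.8% and 30.9% with limma (pseudocounts 1 and 0.1). With only the compared groups fitted it was 32.4%, and with depth class 30.7%.

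The number of tracheal genes that rose in ORE50/ORC4 was 0 with limma at either pseudocount and 1 with wild-type replicates 1, 2 and 3 alone or past 2-fold, instead of 3, and 1 to 4 when 1 library was left out. In ORC4 the number that rose was 2 with DESeq2, 0 with limma at either pseudocount and 0 with wild-type replicates 5 and 6 alone, instead of 1, and 0 to 2 when 1 library was left out. The number that fell there was 0 with limma at either pseudocount, with wild-type replicates 5 and 6 alone and past 2-fold, instead of 2, and 2 to 2 when 1 library was left out. Between the mutants limma and the 2-fold limit each gave 0 higher instead of 3, and the 2-fold limit gave 0 lower instead of 1. Leaving out 1 library gave 3 to 3 higher and 0 to 2 lower there, and 5 to 5 higher and 4 to 6 lower between stages. Over all genes, limma passed 49.7% in either direction in ORE50/ORC4 at either pseudocount. In ORC4 it passed 30.7% (pseudocount 1) and 29.9% (pseudocount 0.1), and DESeq2 passed 36.2%. The cause of these changes was not tested. limma on TPM moved the median of all genes between the mutants by -0.145 (pseudocount 1) and -0.150 (pseudocount 0.1).

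When replicate numbers entered as a block, over the libraries whose numbers are shared, 14 Osiris genes rose in ORE50/ORC4, 7 in ORC4, 2 between the mutants and 16 between stages, and 1 tracheal gene fell in ORE50/ORC4 (rib, -0.34, adjusted p = 0.0235). In ORC4 the block gave 1 tracheal gene that rose (tgo, 0.36, adjusted p = 0.0297; wus did not pass) and 3 that fell, among them rib (-0.32, adjusted p = 0.0335). Those libraries fitted with no block term, an alternative chosen after seeing the data, gave 1 Osiris gene in ORC4 and 2 between the mutants, and 1 tracheal gene that rose in ORE50/ORC4 and 0 in ORC4. In that ORC4 fit 16 Osiris genes were tested, and 27.7% of all genes passed in either direction. The share of all genes was 32.4% between the mutants and 37.1% in ORE50/ORC4. Correlations of same-numbered libraries ran from -0.153 to 0.441. Against wild type at 14 to 17 h, numbers 2 and 3 gave 0.239 and 0.265 in ORE50/ORC4 and 0.307 and 0.188 in ORC4. Differently numbered pairs reached 0.089 and 0.138 there, while number 1 gave -0.006 and 0.031. Between the mutants, differently numbered pairs reached 0.404. Whether the numbers mark pairs was therefore not settled.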
